A study of Mus musculus with 12 samples.

Results

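The 10 genes described here are markers of endothelial cells, the cells that line blood vessels, chosen by name as known markers: Pecam1, Cdh5, Kdr, Flt1, Tek, Tie1, Emcn, Esam, Vwf and Eng. All 10 were among the 20788 genes measured, and all 10 were among the 16388 genes that had enough reads to be tested. The samples were whole testes of F1 male mice, 12 RNA-seq libraries in 4 groups of 3. Per the study's methods, F0 males of the outbred ICR strain received lentivirus in the testis and were mated with untreated females, and male offspring were sampled at 8 weeks of age with no treatment of their own. The fathers of the group called knockdown received shRNAs against the long noncoding RNA lncRNA5251 in the LV3 vector, and those of its control, 3NC, received the LV3 control virus. The fathers of the overexpression group received lncRNA5251 in the LV5 vector, and those of its control, 5NC, received the LV5 control virus. All 4 groups thus descend from males given a lentivirus, and none from uninjected males. The design text of the series instead describes the F1 testes themselves as transfected, and the strain is written IRC in the labels. Nothing in the labels ties each library to its own animal, and the p-values below measure the spread between libraries, which may be technical. No gene of the table goes by the name lncRNA5251, so the targeted RNA gave no check of the labels.

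In the testis, blood vessels run through the interstitium between the seminiferous tubules and do not enter them, and most RNA of the organ comes from germ cells. Endothelial cells hold to each other through adhesion molecules, receive growth signals of the VEGF family through receptor tyrosine kinases and signals of stability through the angiopoietin receptors. In RNA from whole tissue, fewer endothelial cells and less RNA per cell cannot be told apart.

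Transcription factors of the ETS family bind DNA with the core letters GGAAG or close variants of it and act at many endothelial promoters. The RefSeq table of promoters (build GRCm38.p6) held 6 of the 10 genes, and the 250 bases before the start of each were searched on both strands for GGAAG, which reads CTTCC on the other strand. The letters GGAAG occurred 6 times before Tie1, 3 times before Flt1, 2 times before Eng and before Emcn and 1 time before Kdr. They were not found in the window before Tek. Close variants of the core were not searched for, so these counts do not cover them. Of all 32851 promoters searched in the same way, 64.1% held the letters at least once and 29.4% held them at least 2 times, and the median was 1 match. The letters GATAA, a core bound by GATA factors and read as TTATC on the other strand, were in none of the 6 windows and in 22.6% of all promoters. The windows of Tie1, Eng and Emcn are shown, since they hold at least 2 matches and lie before the annotated gene, apart from the final bases of that of Emcn. They are written 5′ to 3′ in the direction of the gene, with GGAAG and CTTCC in capitals. The windows are at chr4:118489850-118490099 on the minus strand for Tie1, at chr2:32646345-32646594 on the plus strand for Eng and at chr3:137340828-137341077 on the plus strand for Emcn. Such a match describes the letters and is not evidence of binding.
Tie1 promoter: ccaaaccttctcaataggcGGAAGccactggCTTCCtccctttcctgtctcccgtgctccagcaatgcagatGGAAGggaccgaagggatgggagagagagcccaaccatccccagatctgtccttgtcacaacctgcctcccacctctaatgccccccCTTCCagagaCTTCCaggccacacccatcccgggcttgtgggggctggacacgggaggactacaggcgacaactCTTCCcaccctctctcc
Eng promoter: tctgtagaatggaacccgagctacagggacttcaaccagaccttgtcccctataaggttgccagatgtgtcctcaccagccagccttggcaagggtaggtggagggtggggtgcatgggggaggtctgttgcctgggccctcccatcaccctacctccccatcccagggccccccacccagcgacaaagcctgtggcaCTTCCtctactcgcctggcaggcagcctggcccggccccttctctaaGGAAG
Emcn promoter: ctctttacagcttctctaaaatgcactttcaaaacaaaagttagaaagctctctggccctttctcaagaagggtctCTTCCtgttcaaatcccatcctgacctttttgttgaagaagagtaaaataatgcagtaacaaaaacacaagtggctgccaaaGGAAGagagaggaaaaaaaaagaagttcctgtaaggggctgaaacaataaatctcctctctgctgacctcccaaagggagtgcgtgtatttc
Pecam1, Cdh5, Esam and Vwf had no entry in the promoter table.

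The libraries held between 12719699 and 15771655 reads assigned to genes, a range of 1.24 times. Levels are given as CPM, the reads of a gene scaled to a common library size by the TMM method, for comparing libraries, and as the authors' FPKM, which is also divided by gene length, for comparing genes. Replicate 2 of 3NC and replicate 1 of the knockdown group stood apart. The 9 leukocyte markers, of which Ptprc is a defining member, summed to 515 CPM in 3NC replicate 2 and 424 CPM in knockdown replicate 1, and to between 24.9 and 71.3 CPM in the other 10 libraries. The 10 macrophage markers summed to 692 and 857 CPM in the same pair of libraries and to between 416 and 476 CPM in the others. Ptprc itself reached 94.8 CPM in 3NC replicate 2 and 71.7 CPM in knockdown replicate 1. The knockdown values of the 10 genes and the medians of the gene lists are therefore also given without that pair of libraries.

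The endothelial genes were expressed at a low level in whole testis. Mean FPKM over the 12 libraries was 2.92 ± 1.13 (SD, n = 12) for Eng, 2.0 ± 0.357 for Vwf, 1.62 ± 0.392 for Cdh5, 1.44 ± 0.202 for Esam and 1.22 ± 0.650 for Pecam1. It was 1.13 ± 0.165 for Tek, 1.12 ± 0.355 for Kdr, 1.04 ± 0.174 for Flt1, 0.967 ± 0.340 for Emcn and 0.588 ± 0.194 for Tie1. The genes therefore spanned a range from percentile 28.8 (Tie1) to percentile 48.2 (Eng) of the mean FPKM of all genes in the table. Neighbours in this order were not separated by their spread over libraries, since the ranges of each neighbouring pair overlapped. The steadiest step was the last, with Emcn above Tie1 in 12 of 12 libraries. Eng exceeded Vwf in 10 of 12 libraries, and the other neighbouring pairs kept their order in 4 to 9 of 12. Reads behind a value ran from 10 for Emcn to 326 for Vwf. For the 10 reads of Emcn in knockdown replicate 2, the exact Poisson interval at 95%, which covers counting error alone, was 4.80 to 18.4 reads.

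The 10 genes did not vary to the same extent between libraries of a group. The SD of log2 CPM within groups was 0.63 for Pecam1 and 0.52 for Eng, percentiles 90.0 and 85.6 among 7715 genes with a median CPM between 1 and 20, for which the median SD was 0.28. At the other end, Flt1 had an SD of 0.17, Tek of 0.19 and Esam of 0.22. Summed over the 10 genes, the level was highest in 3NC replicate 2 at 81.3 CPM and lowest in 5NC replicate 2 at 43.4 CPM. 3NC replicate 2 was the highest of the 12 libraries for 5 genes, Pecam1, Cdh5, Kdr, Emcn and Eng. 5NC replicate 2 was the lowest for 3 genes, Kdr, Tie1 and Vwf.

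**Figure D1:**
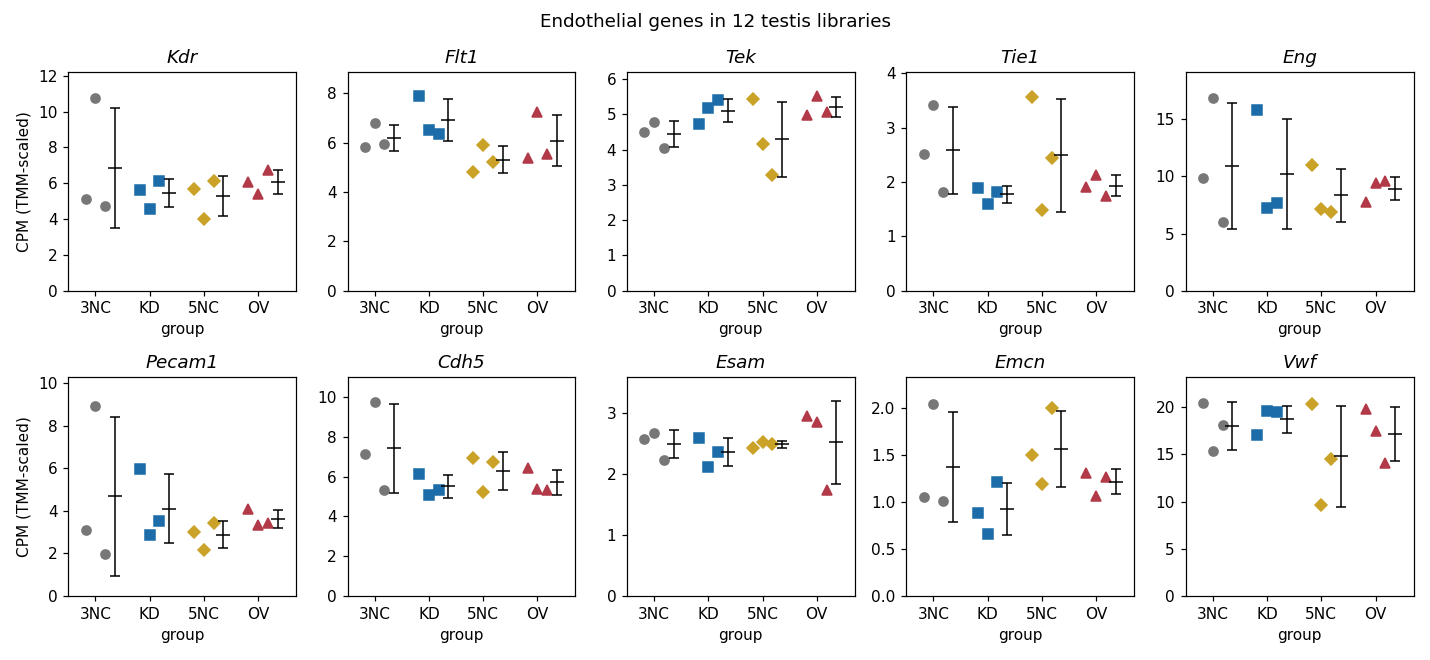
TMM-scaled CPM (vertical axes, from 0) of each endothelial gene in the 12 libraries, by group (KD, knockdown; OV, overexpression). Points are libraries in order of replicate number, and the bar beside them is the mean ± SD of 3; the groups compared overlap for every gene, and the 3NC library at 8.95 CPM for Pecam1 and 16.8 CPM for Eng is replicate 2.

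Kdr (chr5:75932827-75979072, minus strand) encodes VEGFR2, the main signalling receptor for VEGF-A. It was at 5.10, 10.8 and 4.73 CPM in replicates 1, 2 and 3 of 3NC, at 5.63, 4.59 and 6.14 CPM in knockdown, at 5.68, 4.01 and 6.15 CPM in 5NC and at 6.05, 5.39 and 6.74 CPM in overexpression. The library at 10.8 CPM stood alone above all the others, which reached at most 6.74 CPM, and the knockdown values overlapped those of the remaining 3NC libraries. The log2 fold change of Kdr was -0.33 ± 0.30 (SE) for knockdown against 3NC and 0.20 ± 0.30 for overexpression against 5NC, with adjusted p of 0.780 and 0.867 (edgeR quasi-likelihood test, Benjamini-Hochberg). Without 3NC replicate 2 and knockdown replicate 1, the first value was 0.13 ± 0.24, and its direction turned.

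Flt1 (chr5:147561604-147726438, minus strand) encodes VEGFR1, which binds VEGF-A tightly and, in its soluble form, holds it away from Kdr. Flt1 was at 5.82, 6.77 and 5.94 CPM in 3NC, at 7.90, 6.51 and 6.35 CPM in knockdown, at 4.80, 5.91 and 5.22 CPM in 5NC and at 5.39, 7.26 and 5.55 CPM in overexpression. Its highest library, knockdown replicate 1, was 1.64 times its lowest, 5NC replicate 1, and the groups compared overlapped. For knockdown against 3NC the log2 fold change was 0.16 ± 0.17, and for overexpression against 5NC it was 0.19 ± 0.17. The adjusted p by edgeR was 0.803 and 0.728, and the 95% intervals of the log2 fold change, -0.21 to 0.54 and -0.19 to 0.57, were among the narrowest of the 10 genes. The knockdown value of Flt1 was 0.13 ± 0.19 without the pair of libraries that stood apart.

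Tek (chr4:94739086-94874976, plus strand) encodes TIE2, the receptor for angiopoietins. Tek was at 4.50, 4.79 and 4.05 CPM in 3NC and at 4.74, 5.18 and 5.40 CPM in knockdown. It was at 5.43, 4.15 and 3.29 CPM in 5NC and at 5.00, 5.53 and 5.08 CPM in overexpression. Both comparisons had higher means in the group of interest, yet in each the ranges overlapped, through knockdown replicate 1 and 5NC replicate 1. The fitted log2 fold change of Tek was 0.20 ± 0.19 for knockdown and 0.28 ± 0.19 for overexpression, with adjusted p of 0.790 and 0.635 by edgeR. The latter was the smallest adjusted p of any of the 10 genes in that comparison. Without the pair that stood apart, Tek was at 0.31 ± 0.23 for knockdown, and its overexpression value ran from 0.12 without 5NC replicate 3 to 0.48 without 5NC replicate 1.

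Tie1 (chr4:118471191-118489849, minus strand) encodes an orphan receptor that pairs with TIE2 and modulates its signal. Tie1 was at 2.51, 3.42 and 1.82 CPM in 3NC, at 1.90, 1.60 and 1.82 CPM in knockdown, at 3.56, 1.48 and 2.43 CPM in 5NC and at 1.91, 2.13 and 1.75 CPM in overexpression. The controls spread widely, whereas the knockdown and overexpression libraries lay close together, near or below the lowest of their controls in knockdown and within the range of 5NC in overexpression. Tie1 had a log2 fold change of -0.54 ± 0.32 for knockdown against 3NC and -0.37 ± 0.32 for overexpression against 5NC. Neither passed, with adjusted p of 0.764 and 0.719 by edgeR. The knockdown value was -0.34 ± 0.38 without the pair that stood apart and -0.29 without 3NC replicate 2 alone. For overexpression it was -0.02 when 5NC replicate 1 was left out and -0.64 for 5NC replicate 2.

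Eng (chr2:32646595-32682669, plus strand) encodes endoglin, a co-receptor for BMP9 and other ligands of the TGF-beta family. Eng was at 9.86, 16.8 and 6.01 CPM in 3NC, at 15.8, 7.24 and 7.70 CPM in knockdown, at 11, 7.11 and 6.87 CPM in 5NC and at 7.76, 9.46 and 9.60 CPM in overexpression. The 2 highest of the 12 libraries were 3NC replicate 2 and knockdown replicate 1, at 2.17 and 2.04 times the median of the others. Eng had a log2 fold change of -0.09 ± 0.38 for knockdown and 0.10 ± 0.38 for overexpression, with adjusted p of 0.960 and 0.958 by edgeR. Without that pair of libraries the knockdown value was -0.09 ± 0.28, and it ran from -0.55 to 0.37 leaving out single libraries. Eng shares 61 bases with Fpgs on the opposite strand, and no source used here says whether reads were counted by strand, so a part of the reads could belong to Fpgs, which had a median of 16.5 CPM.

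Pecam1 (chr11:106654213-106715281, minus strand) encodes CD31, an adhesion molecule of endothelial junctions that leukocytes and platelets also carry. Pecam1 was at 3.11, 8.95 and 1.96 CPM in 3NC, at 5.94, 2.86 and 3.51 CPM in knockdown, at 2.99, 2.18 and 3.43 CPM in 5NC and at 4.08, 3.33 and 3.41 CPM in overexpression. Both the highest and the lowest of the 12 values were in 3NC, 4.57 times apart. Pecam1 had a log2 fold change of -0.19 ± 0.47 for knockdown against 3NC and 0.33 ± 0.48 for overexpression against 5NC, with adjusted p of 0.925 and 0.861 by edgeR. Without 3NC replicate 2 and knockdown replicate 1, the knockdown value was 0.33 ± 0.29, of the opposite sign. The overexpression value stayed at 0.33, with an SE of 0.24 beside 0.48. That SE also depends on the pair, as all libraries share the estimate of the spread. Without 5NC replicate 2 the overexpression value was 0.16. The highest library exceeded the lowest by 2.08 times once that pair was left out.

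Cdh5 (chr8:104101613-104144504, plus strand) encodes VE-cadherin, the adhesive protein of endothelial adherens junctions. Cdh5 was at 7.15, 9.76 and 5.34 CPM in 3NC, at 6.13, 5.05 and 5.33 CPM in knockdown, at 6.93, 5.21 and 6.73 CPM in 5NC and at 6.44, 5.39 and 5.32 CPM in overexpression. Knockdown replicates 2 and 3 lay below every 3NC library, replicate 3 only just below 3NC replicate 3, and knockdown replicate 1 lay within the range of 3NC. For knockdown against 3NC, Cdh5 had a log2 fold change of -0.43 ± 0.22, with an unadjusted p of 0.0753, the smallest of the 10 genes in that comparison, and an adjusted p of 0.764 by edgeR. The value was -0.27 ± 0.21 without the pair that stood apart, with an unadjusted p of 0.238 by edgeR, and -0.18 without 3NC replicate 2 alone. For overexpression against 5NC it was -0.14 ± 0.22 with an adjusted p of 0.878 by edgeR. An antisense gene shares 4249 bases with Cdh5 and was not in the table.

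Esam (chr9:37528089-37538319, plus strand) encodes a tight-junction adhesion molecule of endothelium and platelets. It ranged over the 12 libraries from 1.75 CPM in overexpression replicate 3 to 2.96 CPM in overexpression replicate 1, so that both ends lay in the same group. Its log2 fold change was -0.08 ± 0.23 for knockdown and 0.02 ± 0.23 for overexpression, the smallest of the 10 genes in the latter comparison. The knockdown value of Esam was -0.10 ± 0.28 without the pair that stood apart. Emcn (chr3:137341062-137431069, plus strand) encodes endomucin, a sialomucin of capillaries and veins. Emcn was at 1.06, 2.05 and 1.01 CPM in 3NC, at 0.885, 0.665 and 1.22 CPM in knockdown, at 1.5, 1.20 and 2.0 CPM in 5NC and at 1.32, 1.07 and 1.27 CPM in overexpression. 3NC replicate 2 and 5NC replicate 3 were the highest libraries, and the groups compared overlapped. Emcn had a log2 fold change of -0.58 ± 0.36 for knockdown and -0.36 ± 0.35 for overexpression, with adjusted p of 0.764 and 0.758 by edgeR. The knockdown value was -0.14 ± 0.40 without the pair that stood apart and -0.17 without 3NC replicate 2 alone, and the overexpression value was -0.15 without 5NC replicate 3. The 95% intervals with all libraries, -1.36 to 0.20 and -1.13 to 0.40, were wide beside those of Flt1 and Tek.

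Vwf (chr6:125552948-125686679, plus strand) encodes von Willebrand factor, the clotting protein that endothelial cells store and that platelets also carry. Vwf was at 20.5, 15.3 and 18.1 CPM in 3NC, at 17.1, 19.6 and 19.4 CPM in knockdown, at 20.3, 9.64 and 14.5 CPM in 5NC and at 19.8, 17.5 and 14.1 CPM in overexpression. The lowest value was that of 5NC replicate 2, and 3NC replicate 2, highest for other members, ranked 9 of 12 here. Vwf had a log2 fold change of 0.06 ± 0.23 for knockdown and 0.21 ± 0.23 for overexpression, with adjusted p of 0.955 and 0.794 by edgeR. Without the pair that stood apart, Vwf was at 0.02 ± 0.27 for knockdown. Its overexpression value ran from -0.02 to 0.51 leaving out single libraries. The 10 platelet markers summed to between 6.11 and 9.80 CPM in the 12 libraries.

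Across the 10 endothelial genes, no difference between knockdown and 3NC passed the threshold (adjusted p under 0.05, edgeR). Of the 16388 genes tested, 0% passed in that comparison. At an unadjusted p under 0.05, 0 of the 10 endothelial genes stood against 5.64% of all genes, and DESeq2 and limma also called 0 of the 10, beside 0.0985% and 0% of all genes. The CPM of the groups overlapped for all 10, whereas they did not overlap for 11.3% of all genes. The log2 fold change was positive for 3 of the 10 genes (Flt1, Tek and Vwf) and negative for 7, with a median of -0.14 beside -0.02 over all genes tested. Without 3NC replicate 2 and knockdown replicate 1 the median was -0.03, with 5 of 10 positive. The value turned on single libraries: it was 0.06 without 3NC replicate 2, 0.00032 without knockdown replicate 2 and -0.08 without knockdown replicate 3. It was -0.45 when 3NC replicate 3 was left out, -0.43 for knockdown replicate 1 and -0.28 for 3NC replicate 1. No shift of the 10 genes was thus detectable beyond the spread between libraries.

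None of the 10 passed for overexpression against 5NC, where 0.311% of all genes did. The count at an unadjusted p under 0.05 was 0 of 10, beside 11.9% of all genes, and DESeq2 and limma called 0 of the 10, beside 2.02% and 0.342% of all genes. No gene of the 10 had groups that did not overlap, beside 21.3% of all genes. The log2 fold change was positive for 7 genes and negative for Cdh5, Tie1 and Emcn, with a median of 0.15 beside -0.01 over all genes tested. The median was 0.01 without 5NC replicate 2, the library that was lowest for Kdr, Tie1 and Vwf, 0.05 without overexpression replicate 2 and 0.07 without 5NC replicate 3.

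The comparison of the control viruses, 5NC against 3NC, shares its libraries with both comparisons above. Of the 10 genes, 0 passed, beside 0.128% of all genes, and 0 had an unadjusted p under 0.05, beside 10.8% of all genes, while DESeq2 and limma called 0, beside 1.14% and 0.134%. The groups overlapped for all 10, and did not for 13% of all genes. The log2 fold change was negative for 9 of 10, Emcn being the exception at 0.18 ± 0.34, and the median was -0.23 beside -0.02 over all genes tested. Pecam1 had the lowest value, -0.70 ± 0.48, and an adjusted p of 0.627 by edgeR, and it was at 0.18 ± 0.27 without the pair that stood apart. The median was 0.06 without 3NC replicate 2 alone, -0.09 without 5NC replicate 2 and -0.37 without 5NC replicate 1, and without 3NC replicate 2 and knockdown replicate 1 it was 0.06 with 8 of 10 positive. Over 3NC the leukocyte list summed to between 29.5 and 515 CPM and over 5NC to between 29.6 and 71.3 CPM. The 10 epididymal markers, from the organ attached to the testis, summed to between 14.0 and 288 CPM in 5NC, 31.9 and 75.4 CPM in 3NC, 1.20 and 17.6 CPM in knockdown and 1.25 and 1.43 CPM in overexpression, with 1 to 3 of the 10 at 0 in each group. The part of either list in the values of the endothelial genes was not tested.

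The difference between the effect in the knockdown group and the effect in the overexpression group was tested as an interaction. It passed for 0 of the 10 genes, beside 0.0244% of all genes, and 0 of 10 had an unadjusted p under 0.05, beside 4.63% of all genes, with 0 called by DESeq2 or limma, which called 0.264% and 0.0244% of all genes. The largest was that of Kdr, -0.53 ± 0.42, which was -0.07 ± 0.31 without the pair that stood apart. All 10 differences were negative, with a median of -0.18 beside -0.02 over all genes tested, and leaving out each library in turn moved the median. It was -0.42 when 5NC replicate 1 was left out and -0.37 for 3NC replicate 3, against -0.12 for 5NC replicate 2, -0.10 for knockdown replicate 2 and 0.01 for 3NC replicate 2. Without 3NC replicate 2 and knockdown replicate 1 it was -0.07, with 3 of 10 positive.

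**Figure D2:**
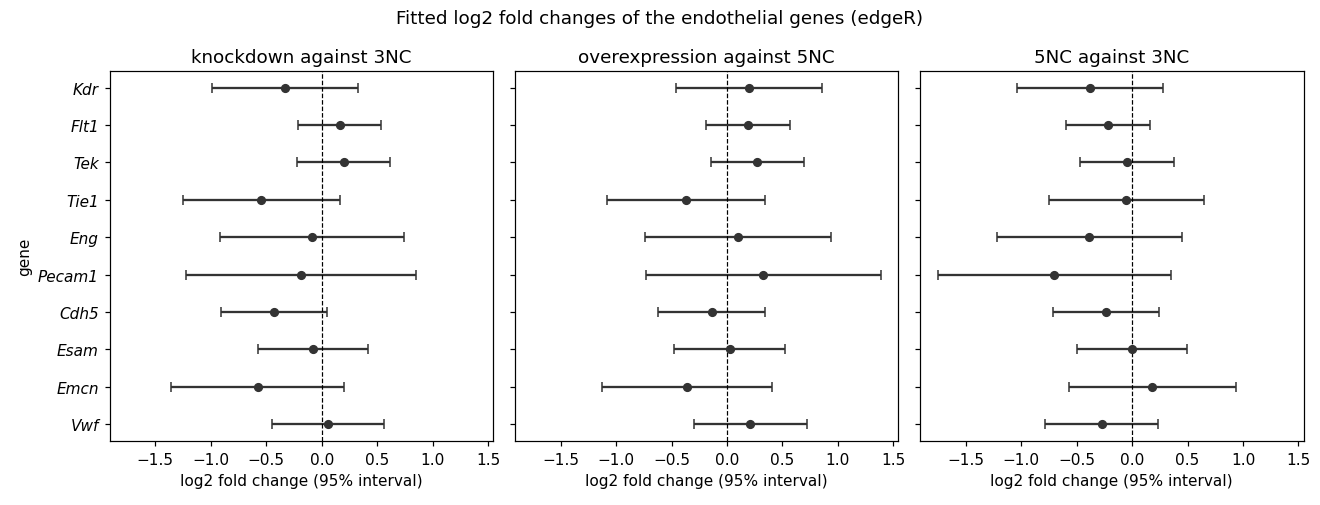
Log2 fold change of each endothelial gene (points, horizontal axis) with its 95% interval from the edgeR fit (bars), for knockdown against 3NC, overexpression against 5NC and 5NC against 3NC; the dashed line marks no change. Every interval crosses the line, and those of Pecam1 and Eng are the widest.

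The libraries that stood apart moved only some of the endothelial genes. In 3NC replicate 2, Pecam1 was at 2.69, Eng at 2.17, Kdr at 1.91, Cdh5 at 1.81, Tie1 at 1.80 and Emcn at 1.71 times the median of the other libraries. Flt1 was at 1.15, Esam at 1.07, Tek at 0.957 and Vwf at 0.848 times that median in the same library. In knockdown replicate 1, Eng was at 2.04, Pecam1 at 1.78 and Flt1 at 1.34 times the median of the others, and the remaining 7 genes were between 0.728 and 1.14 times. Pecam1 and Eng were thus high in both libraries in which the leukocyte list was high, and Kdr, Cdh5, Tie1 and Emcn in 1 of them.

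**Figure D3:**
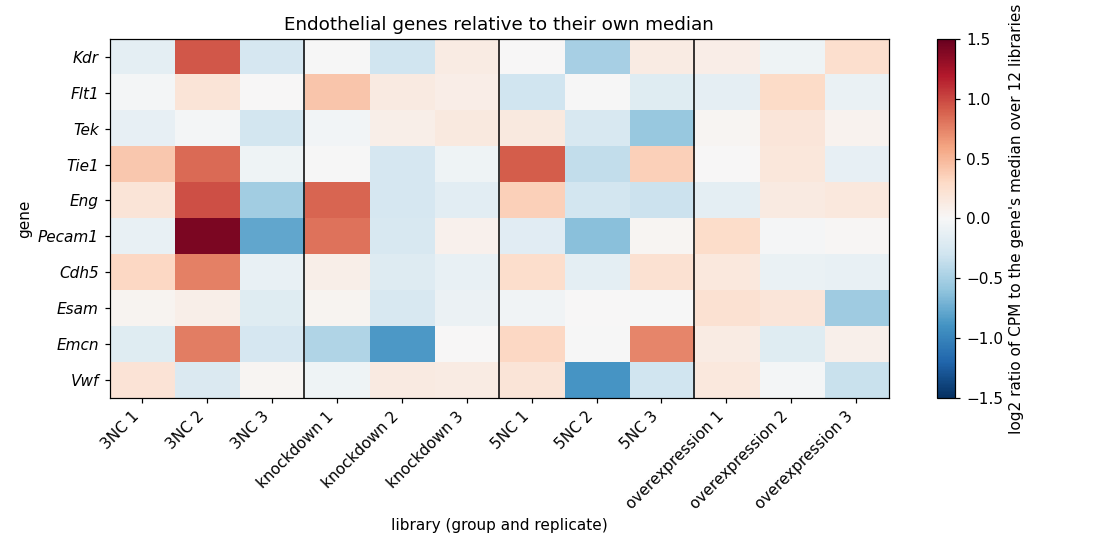
Log2 ratio of CPM to the gene's median over the 12 libraries (colour, red above and blue below), with genes in order of role and libraries in columns by group. The column of 3NC replicate 2 is red for Kdr, Tie1, Eng, Pecam1, Cdh5 and Emcn and pale for Flt1, Tek, Esam and Vwf; that of knockdown replicate 1 is strongly red for Eng and Pecam1 only.

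Described across the 12 libraries, the endothelial genes did not rise and fall as a single block. Among their 45 pairs the median Pearson r of log2 CPM was 0.25, from -0.44 for Flt1 and Emcn to 0.85 for Cdh5 and Tie1, and 12 pairs were over 0.5. In the 10 libraries without 3NC replicate 2 and knockdown replicate 1, the median was 0.28 and 6 pairs were over 0.5. Cdh5 and Tie1 kept 0.82, Pecam1 and Kdr went from 0.84 to 0.80, and Pecam1 and Eng went from 0.84 to 0.45. These points share libraries, depth and the make-up of each tissue piece.

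Log2 CPM of each of the 10 genes was also set beside the summed level of 18 gene lists, 180 pairs in all. Of these, 4 lists are given in detail, chosen after their values were seen. With the leukocyte list, r over 12 libraries ran from -0.21 to 0.80 among the 10 genes, with a median of 0.42. Without the pair that stood apart, r ran from -0.47 to 0.38, with a median of the opposite sign, -0.23. In that list r was 0.80 for Pecam1 and 0.74 for Eng over 12 libraries, and -0.12 and -0.43 over the 10 without the pair that stood apart. With the 10 markers of pericytes, the cells that wrap capillaries, r ran from 0.10 to 0.83 with a median of 0.50. Over the 10 libraries it ran from -0.47 to 0.88 with a median of 0.42. For Eng, Cdh5 and Tie1, r was 0.83, 0.80 and 0.78 over 12 libraries and 0.71, 0.85 and 0.88 over 10. With the spermatid list the median was -0.28 and the range -0.49 to 0.68. Over the 10 libraries the sign of the median turned, to 0.32, with a range of -0.34 to 0.87. Vwf had an r with the 11 spermatid markers of 0.68 over 12 libraries and 0.87 over 10. The spermatid list summed to between 14683 and 20079 CPM, the lowest sum being that of 3NC replicate 2. With the epididymal list the range was -0.76 to 0.44 and the median 0.03, the lowest being Tek, at -0.80 over 10 libraries. The epididymal median was -0.33 over 10 libraries. The widest values over 12 libraries lay in other lists. There r reached 0.95 with the co-receptors of endothelial signalling, and ran from -0.81 to -0.15 with the spermatocyte markers. The median with the spermatocyte markers was -0.51, and -0.23 over 10 libraries. Picked from many pairs, all these values describe the libraries only.

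**Figure D4:**
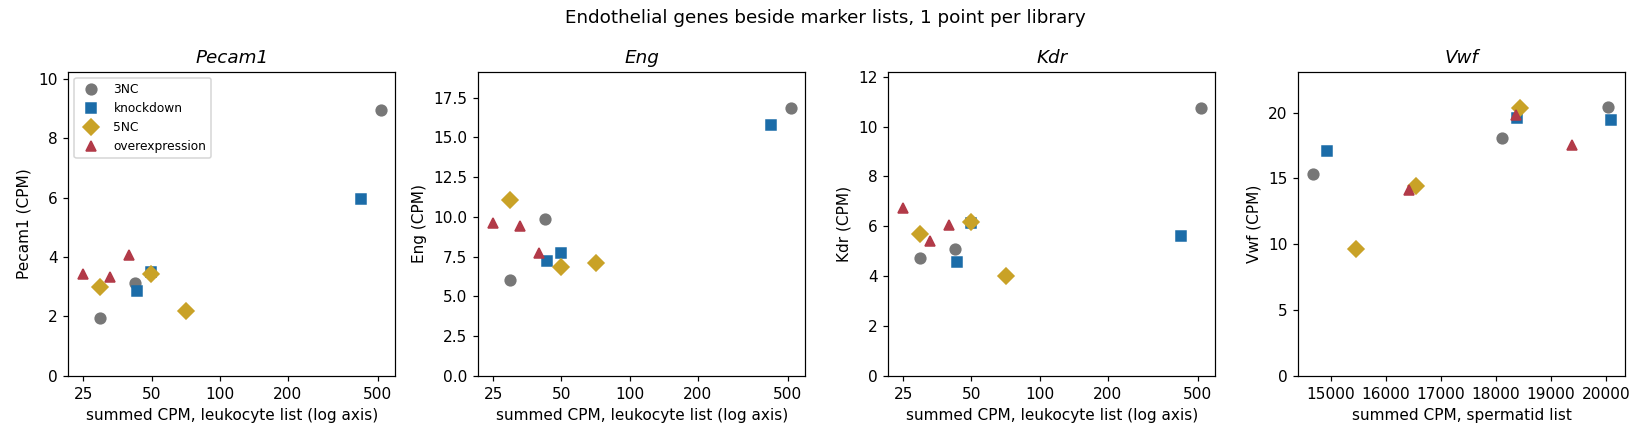
CPM of Pecam1, Eng, Kdr and Vwf (vertical axes, from 0) against the summed CPM of the leukocyte list (log axis) or, for Vwf, of the spermatid list (linear axis not starting at 0), 1 point per library and 1 symbol per group. The libraries at 424 and 515 CPM on the leukocyte axis are knockdown replicate 1 and 3NC replicate 2, and the other 10 lie at or below 71.3 CPM.

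The ligands of these receptors were measured in the same libraries. Of a list of 11 ligands of VEGF, angiopoietin, apelin and endoglin receptors, 8 had enough reads to be tested, and Angpt4, Gdf2 and Bmp10 did not. Called ligands numbered 0 of 8 in every comparison by edgeR, DESeq2 and limma, where calls over all genes were at most 0.311% by edgeR, 2.02% by DESeq2 and 0.342% by limma. For knockdown against 3NC, 7 of 8 log2 fold changes were negative, with a median of -0.50 beside -0.02 over all genes tested. At an unadjusted p under 0.05 stood 2 of the 8, Angpt1 and Apln, beside 5.64% of all genes. Apln, which encodes the ligand of the apelin receptor, had a log2 fold change of -0.94. Without the pair of libraries that stood apart the median was -0.41, with 6 of 8 negative.

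Angpt1 encodes angiopoietin-1, the ligand that activates Tek. It had 17, 21 and 16 reads in 3NC and 9, 5 and 6 reads in knockdown, or 1.13, 1.31 and 1.08 CPM against 0.569, 0.332 and 0.405 CPM. Every knockdown library lay below every 3NC library. Angpt1 had a log2 fold change of -1.41 ± 0.31, with a 95% interval of -2.08 to -0.73, an unadjusted p of 0.000728 and an adjusted p of 0.701 by edgeR. Over the alternatives tried its value ran from -1.65 to -0.99, and its adjusted p from 0.347 to 0.982. For overexpression against 5NC, Angpt1 was at 0.526, 0.466 and 0.635 CPM against 0.998, 0.915 and 0.716 CPM, again with no overlap, and the log2 fold change was -0.69 ± 0.31 with an adjusted p of 0.432 by edgeR. Neither comparison passed over all genes, and the reads behind Angpt1 were few. Groups did not overlap for 11.3% of all genes in the first comparison and 21.3% in the second. The control groups did not overlap for Angpt1 either, every 5NC library being below every 3NC library, beside 13% of all genes. For 5NC against 3NC its log2 fold change was -0.41 ± 0.29, with an adjusted p of 0.637 by edgeR.

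Markers of Leydig cells, the steroid-making cells that lie beside the vessels, were negative in sign for most genes in knockdown against 3NC, as the ligands were. The 9 markers summed to between 1142 and 2211 CPM in 3NC, 1230 and 1540 CPM in knockdown, 1571 and 2107 CPM in 5NC and 1571 and 2224 CPM in overexpression, and none was at 0 throughout a group. Their median log2 fold change for knockdown against 3NC was -0.42, with 6 of 9 negative, 0 called by edgeR and 3 at an unadjusted p under 0.05, beside 5.64% of all genes. Those 3, named after their values were seen, were Lhcgr, the receptor for luteinizing hormone, at -1.20 ± 0.30, Cyp17a1, an enzyme of androgen synthesis, at -1.17 ± 0.35, and Star, which brings cholesterol into mitochondria, at -0.97 ± 0.28. Of the other 6, Cyp11a1 was at -0.66 ± 0.41, Hsd3b6 at -0.42 ± 0.28 and Hsd17b3 at -0.11 ± 0.25, whereas Insl3, a peptide hormone of Leydig cells, was at 0.25 ± 0.17, Hsd3b1 at 0.18 ± 0.16 and Fabp3 at 0.10 ± 0.23. Without the pair of libraries that stood apart the median was -0.36, and for overexpression against 5NC it was 0.03. The part of this list in the values of the ligands and of the endothelial genes was not tested.

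Vegfa, the main ligand of Kdr and Flt1, had a log2 fold change of -0.30 ± 0.44 for knockdown and -0.05 ± 0.44 for overexpression. Vegfb, which binds Flt1, had 0.11 ± 0.19 and 0.04 ± 0.19, and Angpt2, which competes with Angpt1 for Tek, had -0.30 ± 0.29 and 0.15 ± 0.30. Pgf, a ligand of Flt1, was at 4.70 ± 0.341 CPM (SD, n = 3) in 3NC, 3.66 ± 0.803 CPM in knockdown, 6.86 ± 1.70 CPM in 5NC and 4.67 ± 0.247 CPM in overexpression. For overexpression against 5NC its log2 fold change was -0.55 ± 0.21 with an adjusted p of 0.332 by edgeR, and for 5NC against 3NC, which shares the 5NC libraries, it was 0.55 ± 0.21. These values were -0.33 and 0.32 without 5NC replicate 1. Every 5NC library was above every 3NC and every overexpression library for Pgf. Groups did not overlap for 21.3% of all genes for overexpression against 5NC and 13% for 5NC against 3NC.

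**Figure D5:**
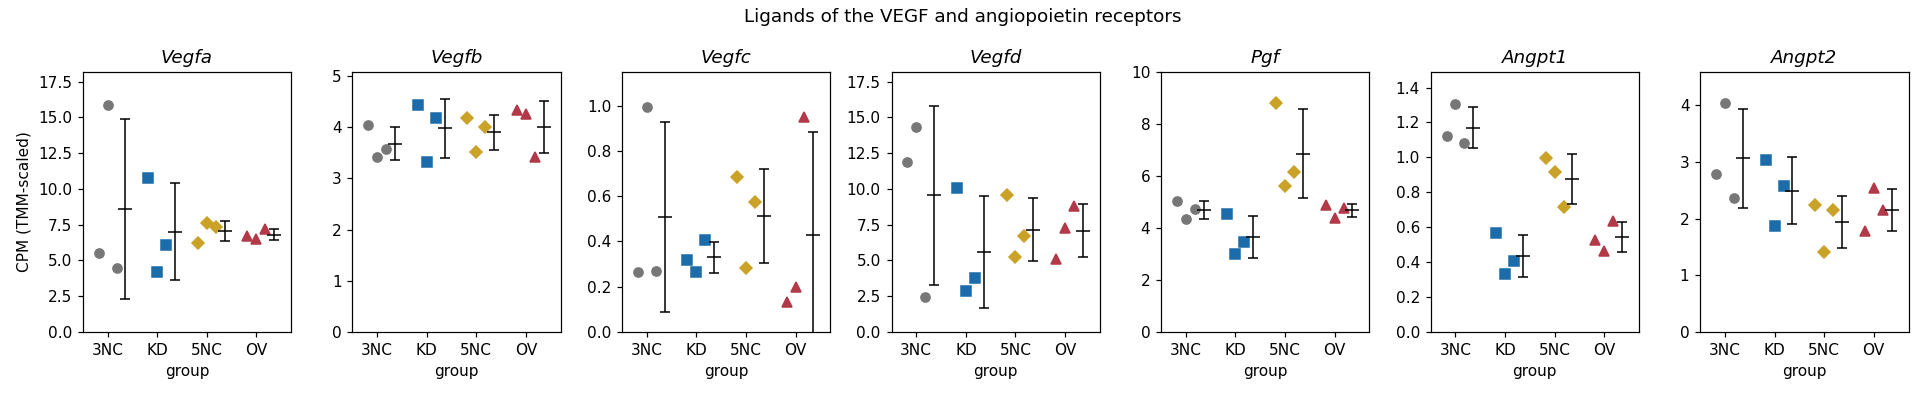
TMM-scaled CPM (vertical axes, from 0) of 7 ligands of the VEGF and angiopoietin receptors by group (KD, knockdown; OV, overexpression), with points for libraries and the mean ± SD of 3 beside them. For Angpt1 the KD points, at most 0.569 CPM, lie below the 3NC points, at least 1.08 CPM, and the OV points lie below the 5NC points. The 5NC points also lie below the 3NC points.

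Other genes of the vessel wall were taken from 4 further lists, none of which held a called gene in any comparison by edgeR. With the ligands these lists had 70 genes tested, of which 7 had an unadjusted p under 0.05 for knockdown against 3NC, beside 5.64% of all genes, and 6 for overexpression against 5NC, beside 11.9%. The count was 8 of 70 for 5NC against 3NC, beside 10.8% of all genes, and 3 of 70 for the difference of the effects, beside 4.63%. The shares in the last 3 comparisons were near or below those of all genes. DESeq2 and limma called 0 of them in these comparisons, apart from 1 by DESeq2 for overexpression against 5NC, which was Klf4. DESeq2 called 2.02% of all genes in that comparison, more than the share of these lists. For knockdown against 3NC, the 12 co-receptors and modulators of endothelial signalling were negative in 12 of 12, with a median log2 fold change of -0.35 beside -0.02 over all genes tested. Without the pair of libraries that stood apart, the median was -0.19, with 2 of 12 positive. The gene of smallest p in that list was Ptprb, a phosphatase that acts on Tek and Cdh5, at -0.42 ± 0.22, and at -0.25 without 3NC replicate 2. The 16 endothelial transcription factors had a median of -0.15 with 4 positive, the 22 further endothelial markers tested -0.20 with 7 positive, and the 13 genes of vascular Notch signalling 0.04 with 8 positive. Without the pair that stood apart, these medians were -0.05 with 7 positive, -0.02 with 10 positive and 0.13 with 8 positive.

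Among the named genes of these lists, Thbd, which encodes the anticoagulant thrombomodulin, was at 5.83 ± 2.02 CPM in 3NC and 3.18 ± 0.464 CPM in knockdown, a log2 fold change of -0.87 ± 0.25 with an adjusted p of 0.764 by edgeR. Klf2, a transcription factor induced by blood flow, was at 16.8 ± 0.246 CPM and 20.9 ± 1.98 CPM in the same groups. Notch4, an endothelial Notch receptor, was at 7.91 ± 0.772 CPM and 10.1 ± 1.38 CPM. These 3 genes had adjusted p of 0.764 by edgeR and none passed.

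For overexpression against 5NC, the medians were 0.07 for the co-receptors, -0.02 for the transcription factors, -0.06 for the further markers and -0.02 for the Notch genes, close to the -0.01 of all genes tested. Klf4, a flow-responsive factor that germ cells and Sertoli cells also express, was at 84.1 ± 6.02 CPM in 5NC and 126 ± 22.3 CPM in overexpression. Its log2 fold change was 0.58 ± 0.16, with an adjusted p of 0.167 by edgeR. DESeq2 gave Klf4 an adjusted p of 0.0319 and was the only alternative that called it. Icam2, an endothelial adhesion molecule, was at 1.02 ± 0.295 CPM in 5NC and 0.326 ± 0.00811 CPM in overexpression, a log2 fold change of -1.61 ± 0.60 with an adjusted p of 0.321 by edgeR. Icam2 had 5, 5 and 4 reads in overexpression and 17, 10 and 18 in 5NC, and its small SD rests on those few reads. Calcrl, the receptor partner for adrenomedullin, had -0.45 ± 0.47, from -0.86 to -0.27 leaving out single overexpression libraries, and Jag1, a Notch ligand, had 0.29 ± 0.13.

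For 5NC against 3NC the co-receptors were negative in 11 of 12, with a median of -0.52, and without the pair of libraries that stood apart the median was 0.05 with 7 positive. Nrp2, a co-receptor for VEGF-C and semaphorins, had -0.90 ± 0.40, with 3NC libraries from 6.08 to 18.6 CPM, and was at -0.25 without the pair that stood apart. Nos3, which encodes endothelial nitric oxide synthase, had -0.74 ± 0.24, and Efnb2, a marker of arteries, had -0.29 ± 0.11, with adjusted p of 0.334 and 0.406 by edgeR. Klf4 had -0.43 ± 0.16.

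For the difference of the effects, the named genes were Angpt1 at -0.71 ± 0.44, Ptprb at -0.58 ± 0.31, Klf4 at -0.33 ± 0.22 (-0.20 without overexpression replicate 1 and -0.21 without 3NC replicate 3), Nos3 at -0.79 ± 0.34 and Jag1 at -0.41 ± 0.18. None passed.

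By the mean z score of the 10 genes over the 12 libraries, the genes most like them outside the list were Dync1li1 (r = 0.93), R3hdm4 (0.93), Tinagl1 (0.93), Tmem86a (0.92), Lasp1 (0.91) and Gpr132 (0.91). All 6 were highest in 3NC replicate 2, the library with the highest mean z score of the endothelial genes, 1.37. Over the 10 libraries without the pair that stood apart, r was between 0.79 and 0.90. The 6 genes of highest r over those 10 libraries were all others, with r from 0.92 to 0.95. Which genes ranked as most alike thus depended on that pair.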

How the data were processed

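RNA-seq was run on whole testes of F1 males. Per the study's methods, poly(A) RNA was enriched with oligo(dT) beads, whereas the labels name total RNA, and reads were aligned to mouse genes with SOAPaligner. Build mm10 is named in the labels. The deposited table holds the authors' estimated count per gene, which had a fractional value for 17.3% of genes and was rounded here, and the authors' FPKM, called RPKM in the methods. Neither the sharing of reads among isoforms nor the use of strand was stated in the sources used here. The table holds 18 further per-sample columns, which match none of the samples and were not used, and columns of the authors' group averages, also not used. The study called genes with DEGseq.

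Groups and replicate numbers came from the sample titles. Counts were filtered by edgeR's default rule, scaled by TMM and tested with edgeR 4.0.16 (quasi-likelihood, R 4.3.3) over all 12 libraries, with Benjamini-Hochberg adjustment over 16388 genes and calls at an adjusted p under 0.05. Biological variation between replicates (BCV) was estimated at 22.9%. Standard errors and 95% intervals came from the same fit with 8 residual degrees of freedom moderated across genes. The libraries shared an estimate of the spread for each gene, so the SE of a comparison also depends on libraries outside it. CPM correlations used log2 CPM with a prior count of 2. The scripts were tested on simulated data with known changes. Depth, between 12719699 and 15771655 reads, limits the precision of genes with few reads. No libraries were duplicates, as the chi-square over its degrees of freedom was at least 3.5 for every pair within a group.

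Alternatives were other scalings, no filter, a replicate block, only the libraries compared, DESeq2 1.42.0, limma 3.58.1 on log2 CPM and on log2(FPKM + 0.1) and log2(FPKM + 1) with or without a minimum of 0.5 FPKM in 3 libraries, and leaving out libraries. Their use on the other vascular genes was added after seeing the data. The 10 genes, the gene lists and the tests were chosen with earlier results of these data known. Named genes were the 10, the gene of smallest p in each of 5 vascular lists where none passed, the 6 tested genes with the highest r with the mean z score of the 10, and Ptprc. Apln, Vegfa, Vegfb, Angpt2, the Leydig cell genes, Prox1, Reln, the beta globin genes and Fpgs fall outside this rule and were chosen for mention after their values were seen. Positions of the genes are from RefSeq, and their strands and overlapping genes from GENCODE. Both are on GRCm38, the build called mm10 in the labels.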

Additional observations from a re-analysis of the deposited data

How the results depend on the processing

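None of the 10 endothelial genes was called under any alternative in any comparison, and no scaling moved the median of all genes by over 0.1 on the log2 scale. Of the alternative fold changes of the 10 genes, the sign stayed as reported in 160 for knockdown against 3NC, 157 for overexpression against 5NC, 141 for 5NC against 3NC and 199 for the difference of the effects, and turned in 10, 13, 29 and 21. The cause was not tested. The comparison with only the libraries compared was not run for the difference of the effects, which uses all 4 groups.

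Genes called among all tested changed more. For knockdown against 3NC the count was 16 with DESeq2 and 0 to 12 leaving out a replicate. For overexpression against 5NC it was 51 as reported, 107 with only the libraries compared, 328 with DESeq2, 82 with limma on log2(FPKM + 0.1), 159 without 3NC replicate 2 and knockdown replicate 1, and 9 to 49 leaving out a replicate. For 5NC against 3NC it was 21 as reported, 33 with total counts, 7 with only the libraries compared, 171 with DESeq2, 35 with limma on unfiltered log2(FPKM + 0.1), 45 without that pair of libraries, and 3 to 35 leaving out a replicate. For the difference of the effects it was 4 as reported, 42 with DESeq2, 9 with limma on unfiltered log2(FPKM + 0.1), and 2 to 10 leaving out a replicate. The split of higher and lower calls was 34 and 17 for overexpression against 5NC and 38 and 29 with total counts, 40 and 42 with log2(FPKM + 0.1), 26 and 29 with log2(FPKM + 1) and 23 and 27 with unfiltered log2(FPKM + 0.1). For 5NC against 3NC it was 5 and 16, and 13 and 20, 11 and 17, 12 and 14 and 13 and 22 in the same order.

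With 3 libraries a group, the values could not settle whether the replicate numbers pair the samples. Deviations of same-numbered libraries from their group means correlated from -0.64 to 0.39 for 3NC and knockdown, from -0.12 to 0.19 for 5NC and overexpression and from -0.0067 to 0.31 for 3NC and 5NC, and libraries correlating best with their own number were 1, 3 and 4 of the 6 in each. With the replicate block, 0 endothelial genes were called, and all genes called numbered 0 for knockdown against 3NC, 21 for overexpression against 5NC, 5 for 5NC against 3NC and 2 for the difference of the effects.

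Fold changes of the 10 genes that turned are given on the log2 scale. Without 3NC replicate 2 and knockdown replicate 1, they were 0.33 (Pecam1) and 0.13 (Kdr) for knockdown against 3NC, 0.18 (Pecam1), 0.010 (Cdh5), 0.10 (Kdr), 0.0092 (Tek), 0.21 (Tie1), 0.048 (Esam) and 0.075 (Eng) for 5NC against 3NC, whose median became 0.062, and 0.036 (Tek), 0.030 (Tie1) and 0.22 (Emcn) for the difference of the effects. Pecam1 was at 0.035 for knockdown against 3NC with limma on log2 CPM. Esam for overexpression against 5NC was at -0.027 with total counts, -0.017 with limma on log2 CPM, -0.066 with limma on log2(FPKM + 0.1), -0.034 on log2(FPKM + 1) and -0.066 on unfiltered log2(FPKM + 0.1), and Esam for 5NC against 3NC at 0.024 with total counts, 0.00037 with no filter on counts, 0.0038 with the replicate block, 0.0016 with limma on log2 CPM, 0.027 with limma on log2(FPKM + 0.1), 0.015 on log2(FPKM + 1) and 0.027 on unfiltered log2(FPKM + 0.1). Flt1 for overexpression against 5NC was at -0.0089 with limma on log2(FPKM + 0.1), -0.0038 on log2(FPKM + 1) and -0.0089 on unfiltered log2(FPKM + 0.1), Tek for 5NC against 3NC at 0.020 with limma on log2(FPKM + 0.1), 0.015 on log2(FPKM + 1) and 0.020 on unfiltered log2(FPKM + 0.1), and Flt1 for the difference of the effects at 0.0086 with total counts, 0.10 with limma on log2(FPKM + 0.1), 0.053 on log2(FPKM + 1) and 0.10 on unfiltered log2(FPKM + 0.1).

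Leaving out each replicate in turn also turned the following. For knockdown against 3NC, the range was -0.56 to 0.69 for Pecam1, -0.53 to 0.15 for Kdr, -0.046 to 0.17 for Vwf and -0.55 to 0.37 for Eng. For overexpression against 5NC, the range was -0.10 to 0.23 for Esam, -0.024 to 0.51 for Vwf and -0.027 to 0.35 for Eng. For 5NC against 3NC, the range was -1.06 to 0.18 for Pecam1, -0.41 to 0.0095 for Cdh5, -0.57 to 0.10 for Kdr, -0.26 to 0.10 for Tek, -0.41 to 0.20 for Tie1, -0.041 to 0.59 for Emcn, -0.066 to 0.048 for Esam and -0.66 to 0.073 for Eng. For the difference of the effects, the range was -0.88 to 0.36 for Pecam1, -0.14 to 0.12 for Flt1, -0.29 to 0.071 for Tek, -0.54 to 0.078 for Tie1, -0.47 to 0.19 for Emcn, -0.31 to 0.029 for Esam, -0.46 to 0.072 for Vwf and -0.64 to 0.27 for Eng. The median of the 10 genes ran from -0.45 to 0.059 for knockdown against 3NC, from 0.012 to 0.19 for overexpression against 5NC, from -0.37 to 0.061 for 5NC against 3NC and from -0.42 to 0.0088 for the difference of the effects.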

Other observations

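The 6 lymphatic endothelial genes, all tested, had 0 called by edgeR in every comparison, with 1 of 6 at an unadjusted p under 0.05 for knockdown against 3NC, beside 5.64% of all genes, 1 of 6 for overexpression against 5NC, beside 11.9%, and 2 of 6 for 5NC against 3NC, beside 10.8%. The median log2 fold change of that list was 0.22 for knockdown against 3NC, 0.20 for overexpression against 5NC and -0.22 for 5NC against 3NC. Without 3NC replicate 2 and knockdown replicate 1, the medians were 0.28 with 5 of 6 positive, 0.20 with 5 of 6 positive and 0.05 with 3 of 6 positive. The 2 genes at an unadjusted p under 0.05 for 5NC against 3NC, named after their values were seen, were of opposite sign. Prox1, a transcription factor of lymphatic identity, had log2 fold changes of 0.26, 0.37 and -0.47 in these comparisons, with adjusted p of 0.764, 0.174 and 0.149 by edgeR. Reln, which encodes the secreted glycoprotein reelin, had -0.20, -0.21 and 0.31, with adjusted p of 0.764, 0.495 and 0.391 by edgeR. The 10 pericyte genes had medians of -0.25, -0.04 and -0.11 in the same order, with 0 called by edgeR, and of -0.10, -0.04 and 0.14 without that pair of libraries. Of the 9 red cell genes, 7 passed the filter on counts, and 2 of the 7 were called by edgeR for overexpression against 5NC, beside 0.311% of all genes, and 2 for 5NC against 3NC, beside 0.128%. These were the beta globin genes Hbb-bs and Hbb-bt, named after their values were seen, and Hbb-bs was also called for the difference of the effects, beside 0.0244%. Hbb-bs was between 6.01 and 14.1 CPM in 3NC, 3.22, 3.66 and 3.85 CPM in knockdown, 0, 0 and 0.0716 CPM in 5NC and 4.41, 10.4 and 7.30 CPM in overexpression, and Hbb-bt was at most 0.0704 CPM in 5NC. Hbb-b1, a beta globin gene of close sequence, was at 9.93, 7.89 and 7.70 CPM in 3NC and 21.6, 35.0 and 25.7 CPM in 5NC, and how reads were shared among these genes was not stated, so their separate levels are uncertain. The whole red cell list summed to between 49.3 and 94.0 CPM in 3NC, 51.2 and 81.1 CPM in knockdown, 80.4 and 100 CPM in 5NC and 58.9 and 148 CPM in overexpression, and its part in the values of the endothelial genes was not tested. Limits of these data are the 3 libraries a group, the few reads of Emcn, Tie1, Angpt1 and Icam2, and tissue pieces that differ in leukocyte, Leydig cell, epididymal and red cell markers.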
